A study of Saccharomyces cerevisiae with 4 samples.

Results

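Of 5771 array features with a value for all 4 yeast strains, 41 are described here, for which cells expressing Ssa4 as the only cytosolic Hsp70-Ssa protein had more than 2 times the intensity of cells expressing Ssa1, Ssa2 or Ssa3. They were chosen by these same measured values, so the size of the difference between Ssa4 and the other strains describes the selection and was not tested. The rule was met by 45 features, 0.78% of all features, and 4 of them (OYE3, TRX2, GPX2 and HSP31) were left out together with GRX1, which did not meet it. Names were given to features by matching their 4 intensities to the study's list of changed genes, which named 39 of the 41. The other 2 are called by their feature numbers.

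Each strain is a derivative of Saccharomyces cerevisiae G402, in which the chromosomal SSA1, SSA2, SSA3 and SSA4 genes are deleted and a single SSA gene is carried on a LEU2 plasmid. All 4 plasmids use the constitutive SSA2 promoter, all strains were [psi-], and cultures were kept at 30°C without a stress treatment. RNA from separate extractions was pooled, amplified, labelled with Cy5 and hybridized to 1 spotted oligonucleotide array per strain. The sources used here differ on how many extractions went into a pool and on whether the cultures were grown overnight or harvested in exponential growth. Because each strain has 1 array, no value has a replicate error, and a difference between strains cannot be told apart from a difference between arrays or pools.

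Hsp70-Ssa proteins are ATP-dependent chaperones that hold unfolded proteins, and they also restrain stress transcription programmes such as that of heat shock factor. Yeast answers oxidants and reactive aldehydes with peroxiredoxins, glutathione enzymes, reductases and drug pumps, many of them under the transcription factor Yap1. Its hexose transporter genes are repressed by Rgt1 when glucose is scarce and released when glucose is sensed.

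SSA2, the expressed gene with a name in the list, read 2505 in cells labelled Ssa2, whereas cells labelled Ssa1, Ssa3 and Ssa4, which lack it, read 9.01, 1.21 and 2.38. This checks the label of the Ssa2 array only. SSA1, SSA3 and SSA4 are not among the names used here, and whether a feature without a name, including the 2 selected ones, is one of these genes was not tested. Features more than 2 times above each of the other arrays numbered 10 for Ssa1, 6 for Ssa2 and 14 for Ssa3, against 45 for Ssa4. The reverse, an Ssa4 intensity below 0.5 times that of each other strain, held for 120 features or 2.08%. Ssa4 was the highest of the 4 arrays for 32.8% of all features.

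Across the 41 genes, the ratio of Ssa4 to the highest of the other strains ranged from 2.01 to 60.2, with a median of 2.42, beside a median of 0.858 over all features. Most ratios lay close to the threshold, with 26 of 41 below 2.5, 6 above 3 and 3 above 5. The median ratio of Ssa4 was 3.91 to Ssa1, 2.69 to Ssa2 and 2.602 to Ssa3, where all features gave 0.993, 1.03 and 0.986. These comparisons share the Ssa4 array. In RNA from whole cultures, more transcript in every cell and more transcript in a part of the cells cannot be told apart.

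**Figure D1:**
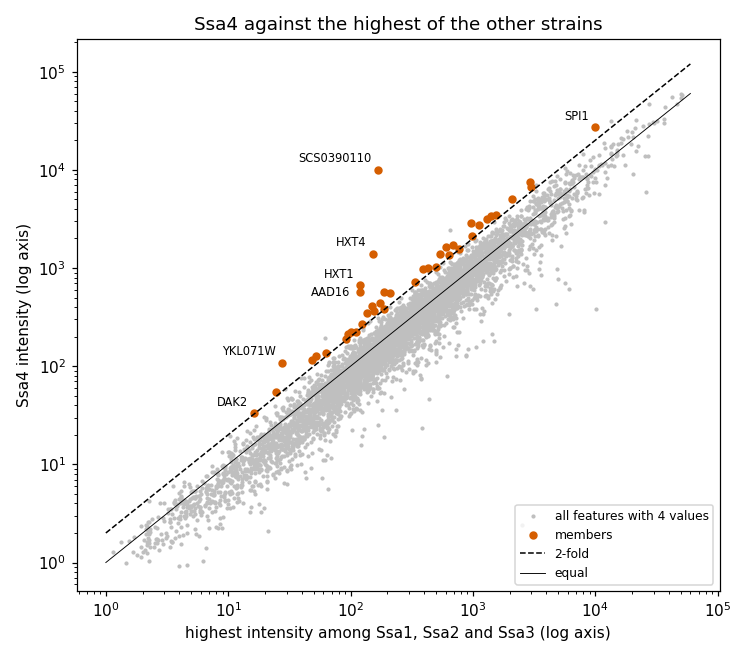
Ssa4 intensity (vertical, log axis, array units) against the highest of the Ssa1, Ssa2 and Ssa3 intensities (horizontal, log axis). Each grey point is a feature with 4 values, orange points are the 41 selected features, and the dashed line is the 2-fold limit they were selected by. Most lie just above the line, and SCS0390110, HXT4, HXT1, AAD16 and YKL071W stand farther from it.

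The selected genes covered a wide span of signal, which depends on the probe as well as on the transcript and is not a comparison of levels between genes. Their Ssa4 intensities ran from 33.2 for DAK2 to 27248 for SPI1, with a median of 721, and 19 of them reached 1000. On the Ssa1 array 24 of the 41 lay below the array median of 202.5, whereas 7 lay below the array median of 202 on the Ssa4 array. For 17 genes the Ssa1 intensity was below and the Ssa4 intensity above the median of its array. Such a shift follows in part from the rule, which required Ssa4 above 2 times Ssa1. An intensity of at least 100 was found on all 4 arrays for 21 genes, and only YLR285C-A and DAK2 stayed below 100 on every array. Their ratios are those of dim spots. For STB6, YNR073C, RRN11, AIM33, COX5B and YKL071W only the Ssa4 intensity reached 100. Adding 50 to every intensity brought the ratios of these genes to 1.68, 1.75, 1.64, 1.81, 1.68 and 2.04.

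**Figure D2:**
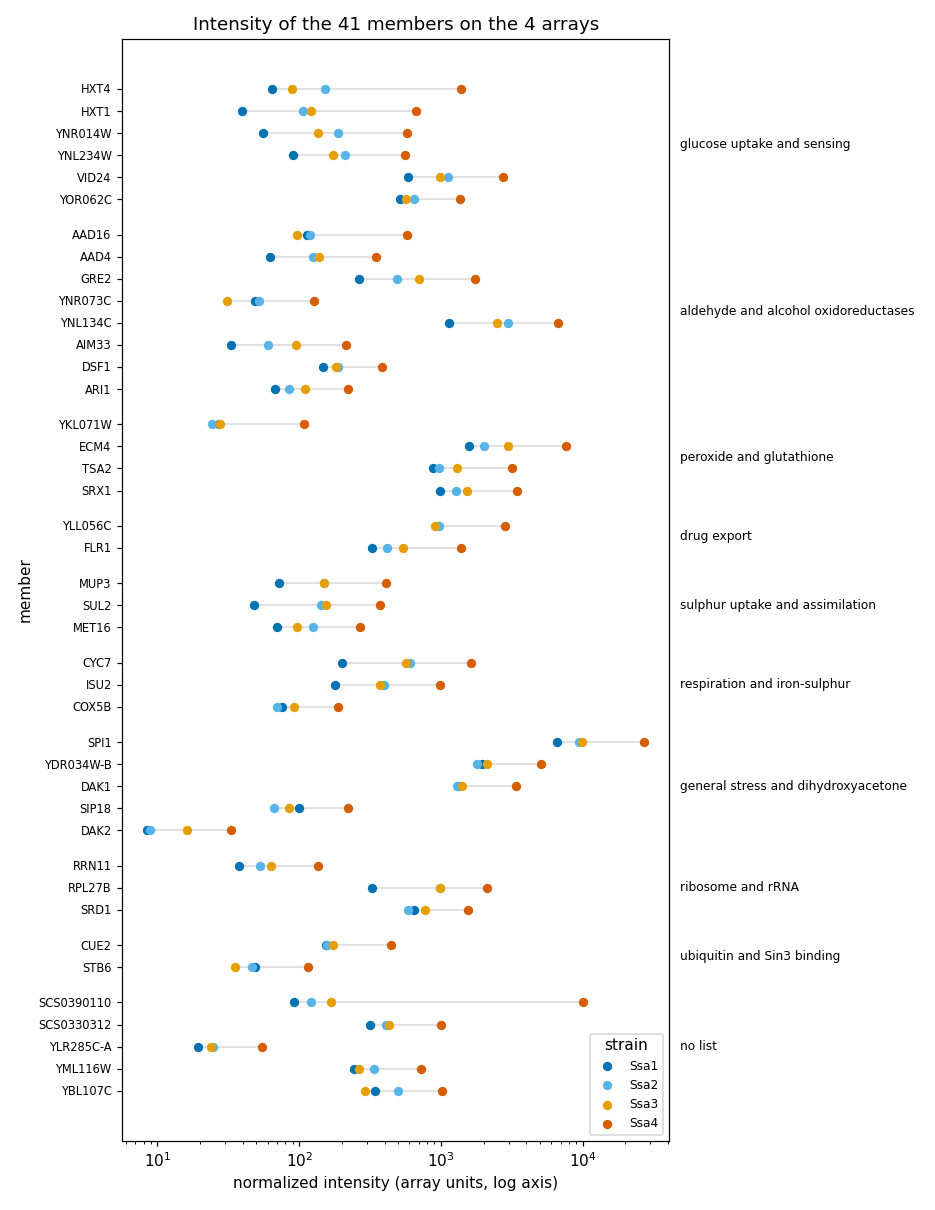
Normalized intensity (log axis, array units) of each of the 41 features, with 1 point for each strain's array, grouped by gene list. The Ssa4 point is the highest in each line by the selection, and the Ssa1 point is the lowest in 30 of 41 lines. A grey line joins the lowest of the other arrays to Ssa4.

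Genes of glucose uptake and glucose signalling held the highest ratios among named genes. HXT4, a glucose transporter of high affinity, had intensities of 64.8, 153, 89.5 and 1391 in the Ssa1, Ssa2, Ssa3 and Ssa4 strains, an order of strains kept in the values that follow. HXT1, a low-affinity transporter used when glucose is plentiful, read 39.5, 106, 120.4 and 668. On these arrays the Ssa4 signal of both stood clear of the other strains. It was 9.09 times the highest of them for HXT4 and 5.54 times for HXT1, although signal was low in the other 3 strains. Of the selected genes, the study also measured HXT1 and YNR014W by RT-qPCR, and those values are not reported here. The ratios given for them are those of the arrays alone. HXT4 and HXT1 lie on the same chromosome arm with 1 gene between them.

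A further 4 genes of this list, none of them a transporter, were also selected. YNR014W, a gene of unknown function annotated as dependent on the transcription factor Azf1 and heat-inducible, read 55.6, 188, 136 and 576. YNL234W, which encodes a globin-like haem-binding protein regulated by Rgt1, had values of 90.3, 212, 172 and 553. In both, Ssa2 and Ssa3 already stood well above Ssa1, and Ssa4 exceeded the higher of them 3.07-fold and 2.61-fold. VID24, which directs the gluconeogenic enzyme fructose-1,6-bisphosphatase to degradation, read 584, 1119, 983 and 2719. YOR062C, a gene regulated by glucose and Rgt1, gave 511, 644, 571 and 1373, with the other 3 strains close together.

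The 5 genes left out of the selection are not counted in the gene lists. Of the 38 genes in the glucose list, 19 could be named and 6 were selected. Ssa4 was the highest of the 4 arrays for 8 of the other 13 and the lowest for 2. The median ratio of Ssa4 to the highest other strain over the 19 was 1.55. Genes were named only if the study had listed them for a change from Ssa1, which can rest on the Ssa4 value itself. In this and each later list, such counts and medians therefore describe named genes only. They cannot be read against the shares of all features or as a trait of the whole list. Among the other named hexose transporters none met the rule. HXT2 read 357, 443, 151 and 239. HXT7 read 70.6, 194, 434 and 107. Ssa2 was the highest strain for HXT2 and Ssa3 for HXT7. HXT6, HXT11 and HXT3 were highest in Ssa4 with ratios of 1.23, 1.46 and 1.55, the last at intensities of at most 17.2.

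Among the gene lists used here, that of oxidoreductases acting on aldehydes and alcohols held the most selected genes. These were 8 of the 19 that could be named in a list of 31. The lists were chosen with earlier results of these data known, so this ranking depends on how they were drawn. AAD16, one of the putative aryl-alcohol dehydrogenases, had values of 113, 119, 96.6 and 574, so that the other 3 strains were nearly level and Ssa4 was 4.83 times the highest. AAD4, a relative linked to the oxidative stress response, showed 62.2, 125, 137 and 351. Among the rest of this family AAD6 came closest, at 96.1, 74.1, 128 and 232 and a ratio of 1.82. AAD10, AAD14 and AAD3 had ratios of 1.12, 0.79 and 0.35, and AAD3 was lowest in Ssa4.

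GRE2, a methylglyoxal and 3-methylbutanal reductase, was higher at each step from Ssa1 to Ssa4, with 265, 492, 695 and 1734. ARI1, an NADPH-dependent aldehyde reductase, followed the same order at 67.6, 84.6, 110.3 and 222. AIM33, related to cytochrome b5 reductases, did so too at 32.8, 60.3, 95.3 and 213. Ssa3 was therefore the strain nearest to Ssa4 for these reductases. YNL134C, a dehydrogenase-like protein, read 1138, 2986, 2502 and 6738, and its Ssa2 and Ssa3 values were both more than 2 times that of Ssa1. Its ratio of 2.26 fell below 2 under quantile normalization, a lowess curve and subtraction of neighbouring spots, at 1.82 to 1.904.

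DSF1 and YNR073C (MAN2 in RefSeq) are near-identical mannitol dehydrogenase-like genes at the ends of separate chromosomes. DSF1 read 148, 187, 181 and 384. YNR073C read 48.5, 51.8, 30.99 and 128, and Ssa3 was its lowest strain. Since probe sequences were not used here, signal from 1 of these genes on the probe of the other cannot be told apart, and the same holds within the AAD and HXT families. Of the other 11 named oxidoreductases, Ssa4 was highest for 6 and lowest for 1, and the median ratio over all 19 was 1.79.

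Among genes of peroxide removal and glutathione chemistry 4 were selected from 20 named ones in a list of 36. TSA2, a stress-inducible peroxiredoxin, read 880.3, 973, 1308 and 3163. SRX1, the sulfiredoxin that repairs over-oxidized peroxiredoxin, read 986, 1284, 1535 and 3456. The enzyme and its repair partner thus had similar profiles, with ratios of 2.42 and 2.25 and the order Ssa1, Ssa2, Ssa3, Ssa4 from low to high. ECM4, an omega-class glutathione transferase, ran in that order as well, at 1588, 2016, 2948 and 7611.

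YKL071W (OSI1 in RefSeq), an oxidoreductase-like gene annotated as induced by the mycotoxin patulin, differed from these in being dim and flat outside the Ssa4 strain, with 27.1, 24.1, 27.8 and 108 and a ratio of 3.90. Adding 50 to every intensity brought this ratio to 2.04. AAD4, FLR1 and YLL056C carry the same annotation. Of the other 16 named genes of this list, 11 had their highest intensity in Ssa4 and 2, CTA1 and GTO3, their lowest. The catalase genes were not raised in Ssa4. CTA1 read 302, 103, 237 and 93.1, and CTT1 read 116, 46.2, 156 and 70.7, with ratios of 0.309 and 0.453. The median ratio over the 20 was 1.53.

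Of the 7 named genes in a list of 25 on drug export and drug resistance, 2 were selected. YML116W, which is ATR1 in RefSeq, is not among the 7. FLR1, a plasma membrane multidrug transporter, read 326, 416, 536 and 1395. YLL056C, listed for its control by the drug resistance factors Yrm1 and Yrr1 and not as a known exporter, gave 952, 964, 915 and 2846. The other 3 strains were within a narrow range for YLL056C, and Ssa4 was 2.95 times the highest. For the other 5 named genes Ssa4 was highest in 2 and lowest in 2, with a median ratio of 1.34 over the 7.

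Sulphur uptake and assimilation contributed 3 genes from 15 named ones in a list of 32. SUL2, a high-affinity sulphate permease, read 48.4, 142, 156 and 369. MUP3, a low-affinity methionine permease, read 72.4, 149.95, 149 and 410. MET16, the reductase that turns activated sulphate into sulphite, read 70.1, 124, 95.8 and 269. In all of them Ssa1 was lowest, Ssa2 and Ssa3 lay between, and Ssa4 was the highest by 2.17-fold to 2.73-fold. MUP1, the high-affinity methionine permease, read 840, 2135, 1522 and 2795 and had a ratio of 1.31. Ssa4 was highest for 10 of the other 12 named genes and lowest for 1, and the median ratio over the 15 was 1.64.

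A list of 26 genes, holding hypoxic respiratory subunits and iron-sulphur assembly among others, gave 3 of its 5 named genes. CYC7, the hypoxic form of cytochrome c, read 200.1, 608, 568 and 1636. ISU2, a scaffold protein for iron-sulphur cluster assembly, read 179.8, 394, 369 and 981. Both showed Ssa2 and Ssa3 at more than 2 times Ssa1 and Ssa4 well above these, with ratios of 2.69 and 2.49. COX5B, the hypoxic form of cytochrome c oxidase subunit V, read 76.0, 69.6, 91.4 and 188, with little between the other 3 strains. The other 2 named genes of the list split, with Ssa4 highest for 1 and lowest for 1. CPR1 read 1836, 1567, 3298 and 6146, with a ratio of 1.86. HEM13 went the other way, at 105.6, 84.1, 106.4 and 35.0, so that Ssa4 was below 0.5 times each other strain. The median ratio over the 5 was 2.06.

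Of 11 named genes of general stress and dihydroxyacetone detoxification in a list of 28, 5 were selected. SPI1, a cell wall protein linked to weak acid resistance, read 6534, 9407, 9904 and 27248. YDR034W-B (CPP3 in RefSeq), a tail-anchored membrane protein with a CYSTM module, read 1934, 1787, 2100.2 and 5095. SIP18, a hydrophilin needed on desiccation, read 100.4, 66.7, 85.1 and 222. The ratios of SPI1, YDR034W-B and SIP18 were 2.75, 2.43 and 2.21, and Ssa1 was the highest of the other strains for SIP18. Subtraction of the signal of neighbouring spots lowered the ratios of SPI1 and YDR034W-B to 1.68 and 1.45, and an offset of 50 lowered that of SIP18 to 1.81.

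DAK1 and DAK2 encode the dihydroxyacetone kinases, which remove dihydroxyacetone by phosphorylation. DAK1 read 1324, 1295, 1403 and 3393, nearly level in the other 3 strains. DAK2 read 8.48, 8.92, 16.2 and 33.2, the lowest Ssa4 intensity of the selection. With 50 added to every intensity the ratio of DAK2 was 1.26 and that of DAK1 stayed above 2. Ssa4 was the highest array for 4 of the other 6 named genes and the lowest for 0, and the median ratio over the 11 was 1.99.

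Genes of ribosomes and rRNA gave 3 of 7 named genes in a list of 24. RPL27B, a protein of the large ribosomal subunit, read 325, 980.02, 992 and 2123, whereas its paralog RPL27A read 2203, 4218, 6120.4 and 6094 with a ratio of 0.996. Both were lowest in Ssa1, and only RPL27B stood higher in Ssa4 than in Ssa3. RRN11, a subunit of the RNA polymerase I core factor, read 37.5, 53.2, 63.5 and 136. SRD1, which takes part in pre-rRNA processing, read 644, 585, 768 and 1551. The other 4 named genes had Ssa4 highest in 0 and lowest in 3, and the median ratio over the 7 was 0.996.

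Only CUE2 and STB6 came from the 5 named genes of the list on ubiquitin and Sin3 binding, which holds 15. CUE2, an endonuclease of ribosome quality control with ubiquitin-binding CUE domains, read 154, 157, 174 and 441. STB6, found by its binding to the repressor Sin3, read 48.8, 46.7, 35.4 and 116. The other 3 strains were close together for CUE2, and Ssa1 was the highest of them for STB6. Of the other 3 named genes 1 was highest in Ssa4, and the median ratio over the 5 was 1.62.

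HSP31, which met the rule, was left out beforehand and is not counted here. No chaperone gene was selected among 10 named ones in a list of 29. Ssa4 was the highest array for 6 of them and the lowest for 3, and it was below 0.5 times each other strain for 1, HSP82, which was picked out after its values were seen. HSP82 read 1124, 1121, 1440 and 442. The median ratio over the 10 was 1.51. Genes below 0.5 times each other strain numbered 1 of the 16 other named peroxide and glutathione genes, GTO3. They numbered 1 of the 2 others in the list with respiratory genes, HEM13, and 0 in each of the remaining lists.

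A group of 5 features belonged to no list. SCS0390110, a feature without a name here, had by far the highest ratio, with intensities of 91.9, 121, 166 and 10024 and thus 60.2 times the next strain. Only the Ssa4 strain carries the SSA4 gene, and whether SCS0390110 is that gene was not tested. SCS0330312, likewise without a name, read 318, 407, 433 and 1003. YLR285C-A, of unknown function, read 19.5, 24.8, 23.8 and 54.8, and its ratio of 2.21 became 1.40 with an offset of 50. The first of them lay below its array's median in 3 strains and near the top of the Ssa4 array, whereas the last stayed below the median in all.

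YML116W is ATR1 in RefSeq, but the study's list gives the feature no name and no known function, so no role is stated here. It read 246, 339, 265 and 721. YBL107C, named MIX23 in RefSeq, read 342, 500.07, 291 and 1015. YBL107C, SRD1 and ARI1 were the genes just inside the threshold, with ratios of 2.03, 2.02 and 2.01. The glutathione transferase GTT2 lay just outside it at 64.7, 97.45, 145 and 290.5. The uncharacterized YGR204C-A followed at 17.1, 25.9, 29.4 and 58.5. The aldehyde dehydrogenase ALD3 came next at 671, 453, 1476 and 2932. Their ratios were 1.997, 1.99 and 1.99, so the genes on both sides of the limit differed little in ratio.

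The order of the Ssa1, Ssa2 and Ssa3 strains among themselves was not used in the selection. Ssa1 was the lowest of them for 30 of 41 genes (73.2%), beside 29.2% of all features. Ssa2 was lowest for 6 of 41 genes, beside 40.0% of all features, and Ssa3 for 5, beside 30.8%. Ssa3 was the highest of them for 22 genes (53.7%), beside 42.4% of all features. Ssa2 was highest for 17 of 41, beside 29.5%, and Ssa1 for 2, STB6 and SIP18, beside 28.1%. The most frequent order was Ssa3 above Ssa2 above Ssa1, found for 17 of 41 genes, beside 17.7% of all features. Ssa2 above Ssa3 above Ssa1 followed, found for 13 of 41 genes, beside 11.5% of all features.

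Ssa2 exceeded 2 times Ssa1 for 11 genes (26.8%), beside 1.35% of all features, and Ssa3 did so for 11 (26.8%), beside 2.24% of all features. With an offset of 50 these counts fell to 4 and 5. These sets shared HXT1, YNR014W, MUP3, CYC7, AAD4, ISU2, SUL2, YNL134C and RPL27B. HXT4 and YNL234W passed only with Ssa2, and GRE2 and AIM33 only with Ssa3. YNR014W had the highest ratio of Ssa2 to Ssa1, 3.38, and SUL2 the highest ratio of Ssa3 to Ssa1, 3.22. No gene was below 0.5 times Ssa1 in either strain, beside 137 of all 5771 features for Ssa2 and 112 for Ssa3. No gene differed more than 2-fold between Ssa2 and Ssa3. Over all features, Ssa3 was above 2 times Ssa2 for 216 and below 0.5 times for 145. As these shares of all features are small, the absence of such genes is not read as a trait of the selection.

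Both ratios divide by the Ssa1 array, so a low signal there moves them together, and the part of that array in this order was not tested. The Ssa4 intensity of every gene was still at least 2.03 times that of Ssa2 and 2.01 times that of Ssa3, so no gene rests on the Ssa1 array alone. With Ssa1 left out as a comparator, 44 features met the rule in place of 41.

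**Figure D3:**
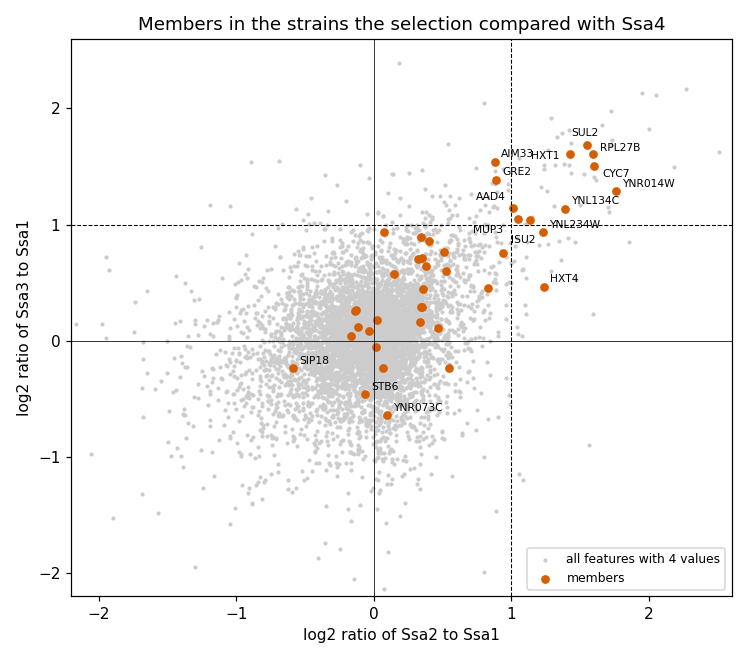
Log2 ratio of Ssa2 to Ssa1 (horizontal) and of Ssa3 to Ssa1 (vertical) for all features with 4 values (grey) and the 41 selected features (orange), of which those past 2-fold (dashed lines) or clearly below 0 are named. Of the orange points 11 lie right of the vertical dashed line and 11 above the horizontal one, and 18 features fall outside the axes.

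At the other extreme were genes whose signal was flat outside the Ssa4 strain. Their Ssa1, Ssa2 and Ssa3 intensities lay within 1.25-fold of each other for 6 genes (14.6%) and within 1.5-fold for 15 (36.6%), beside 32.8% and 65.1% of all features. YLL056C was the flattest, with a highest value 1.05 times the lowest. DAK1, CUE2, YKL071W, YDR034W-B and AAD16 were the other genes within 1.25-fold. For 28 of the 41 genes neither Ssa2 nor Ssa3 was past 2-fold from Ssa1 in either direction. That is no trait of the selection, since it holds for most features. Of all 5771, Ssa2 was above 2 times Ssa1 for 78 and below 0.5 times for 137, and Ssa3 for 129 and 112.

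In the order of protein-coding genes in RefSeq assembly R64, 38 of the 39 named loci have a place. YKL071W and STB6 are direct neighbours, and CUE2 and SRX1 have 3 genes between them on the same chromosome. Among the 20 outermost genes of each chromosome end were 9 of the 38 (23.7%), namely YLL056C, MUP3, AAD4, GRE2, YNR073C, YML116W, DSF1, DAK2 and YBL107C, beside 10.7% of all 6002 genes in the order.

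Spots that lie near each other on an array can share signal, though such sharing was weak here over all features. The log2 ratio of Ssa4 to the mean of the others correlated at 0.075, 0.050 and 0.077 between features 1, 14 and 15 places apart. On the grid implied by the feature numbers, the median log2 ratio of the neighbouring spots, taken against the same strain as the gene's own ratio, could be computed for 39 of the 41. It ranged from -0.77 for DAK1 to 0.74 for YDR034W-B, with a median of -0.06, beside -0.04 over all features. It was above 0.3 for 5 genes (12.8%), beside 9.97% of all features. These were SPI1 at 0.71, CYC7 at 0.55, TSA2 at 0.53, YDR034W-B at 0.74 and YLL056C at 0.33, and the part of the surrounding signal in their ratios was not tested.

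**Figure D4:**
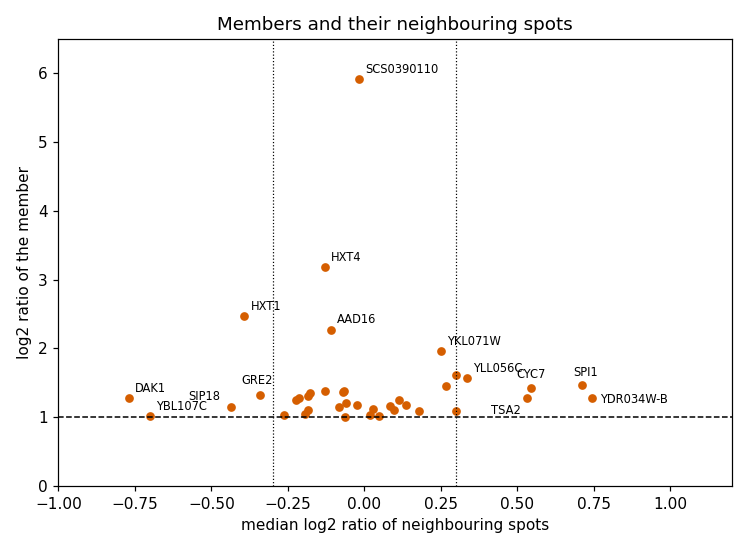
Log2 ratio of Ssa4 to the highest other strain for 39 selected features (vertical) against the median log2 ratio of their neighbouring spots for the same pair of arrays (horizontal). The dashed line marks 2-fold and the dotted lines mark 0.3 on either side of 0. SCS0390110, HXT4 and AAD16 lie near 0 on the horizontal axis, and SPI1, CYC7, TSA2 and YDR034W-B lie farthest to the right.

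With the neighbouring signal subtracted, the ratios of SPI1, CYC7, TSA2 and YDR034W-B were 1.68, 1.84, 1.67 and 1.45, and that of YLL056C was 2.34. DAK1, whose neighbours were lower in Ssa4, had a ratio of 3.66 by the same step. The ratio stayed above 2 for 20 genes under each of 5 other ways of forming it that gave a value: quantile normalization, equal medians, a subtracted lowess curve, an offset of 50 and the subtraction of neighbouring spots. They include HXT4, HXT1, AAD16, YKL071W, MUP3, FLR1, ECM4, GRE2, ISU2, VID24, SUL2 and SRX1, and both features without a name. AAD4 is counted there from 4 of the 5, since it has no neighbour value. The other 21 genes were at or below 2 under at least 1 of these ways. YML116W and SRD1 stayed above 2 under 1 of 5, and YNL134C, YOR062C, DSF1 and YBL107C under 2 of 5.

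**Figure D5:**
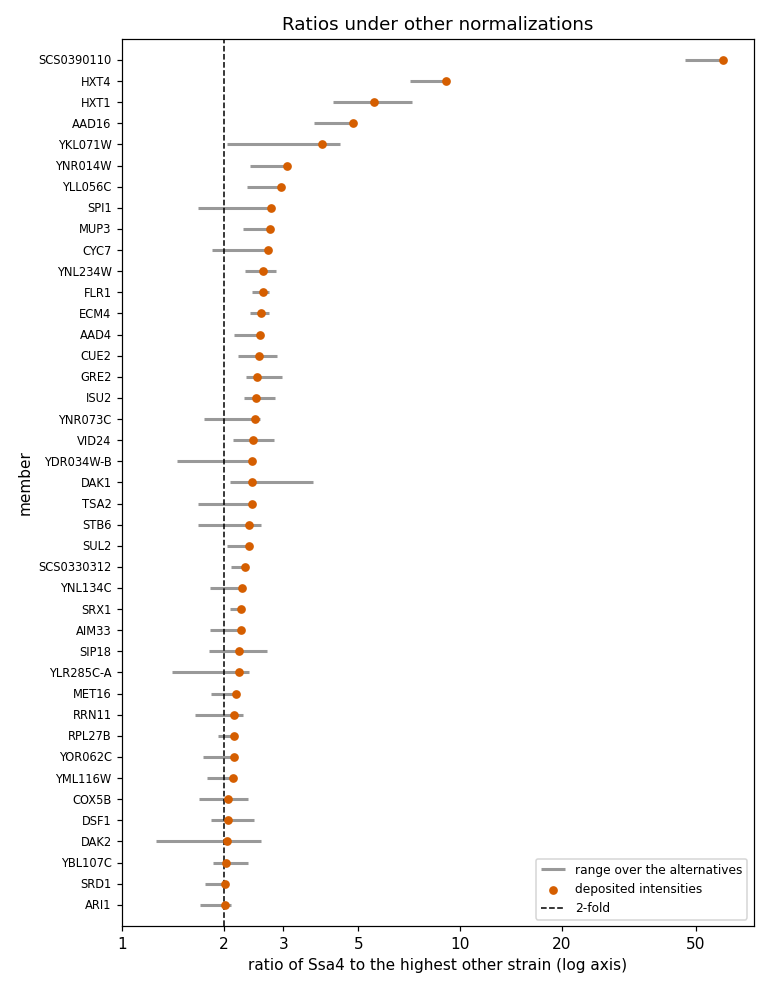
Ratio of Ssa4 to the highest other strain for each of the 41 features (log axis), from the deposited intensities (points) and as a range over the other ways of forming it (grey lines). The dashed line is the 2-fold limit. For SCS0390110, HXT4, HXT1 and AAD16 the whole range lies above 3, whereas for YDR034W-B, YLR285C-A and DAK2 it reaches below 1.5.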

How the data were processed

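The deposited file holds 1 linear, normalized intensity per strain for each of 5794 features of a Toray 3D-Gene yeast oligonucleotide chip, from 1 array per strain. Per the study's methods, the authors took the median Cy5 foreground of each spot, removed spots that did not exceed the limit set by blank spots, took off the mean background and then scaled every array to its median. These intensities were used as deposited for the 5771 features with a value on all 4 arrays, without an offset or a filter.

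The highest of the Ssa1, Ssa2 and Ssa3 intensities was taken as the comparator, and features with a ratio above 2 were kept. The members and the 10 gene lists were chosen with earlier results of these data known. Names came from 946 rows of the study's gene list, each matched to 1 feature in all 4 values (relative tolerance 1e-05), which names 16.4% of the features. All members are accounted for, and values are given for members in a list, the 5 with the highest ratios, the 3 nearest the threshold and those without a name. Genes that are no members were named as paralogs, as the 3 just outside the threshold, or after their values were seen. RefSeq R64 gave symbols and gene order for 38 loci, all but that of AAD16. The build used for the array is not given in the sources used here, so no coordinates are printed. The planned search for promoter motifs and the comparison of proteins were not made, and no sequence is shown.

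The positions of spots were inferred from the feature numbers (32 blocks), and neighbours are the features 1, 14 and 15 places away, of which at least 3 of 6 had to have a value. The grid is not stated by the deposited data and was found in the same values. No test was made, as each strain has 1 array and the members were selected on these values. The number of arrays limits the precision. Alternatives were quantile normalization, equal medians, a lowess curve (fraction 0.4), an offset of 50, a minimum of 100, missing values set to the lowest of the array, thresholds of 3-fold and 1.5-fold, each comparator left out, and the neighbouring signal subtracted. The scripts ran under Python 3.11.15 (pandas 2.3.3, numpy 2.4.6, statsmodels 0.14.6, matplotlib 3.10.9).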

Additional observations from a re-analysis of the deposited data

How the results depend on the processing

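The number of selected features was 41 from the deposited intensities, and 39 to 53 with quantile normalization, equal medians, a subtracted lowess curve, an Ssa4 intensity of at least 100, missing values set to the lowest of the array, or Ssa1 or Ssa2 left out as a comparator. It moved to 27 with an offset of 50, to 21 with at least 100 on all 4 arrays, to 6 at 3-fold, to 207 at 1.5-fold, to 63 after subtraction of the neighbouring signal and to 101 with Ssa3 left out as a comparator. The stricter limits and the dropped comparator change the count by their construction, and for the offset and the neighbouring signal the cause was not tested. Subtraction of the neighbouring signal kept 30 of the 41 and added 33, and AAD4 and YNR073C have no neighbour value and were counted as lost. Quantile normalization also gave 41, of which 33 were the same, and the lowess curve 40, of which 34 were the same.

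Ssa1 was the lowest of the other strains for 30 to 32 genes under every normalization tried. With an offset of 50, the genes with Ssa2 above 2 times Ssa1 went from 11 to 4 and those with Ssa3 above 2 times Ssa1 from 11 to 5. The median ratio was 2.19 to 2.41 under the alternatives. Of 203 recomputed ratios of single genes, 165 were above 2, 38 were at or below 2 and 0 were reversed. No paired analysis was possible because each strain has 1 array. Low signal limits several ratios: the offset moved YKL071W from 3.90 to 2.04, DAK2 from 2.04 to 1.26 and YLR285C-A from 2.21 to 1.40.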

Other observations

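A wider band below the threshold held 166 features with a ratio of Ssa4 to the highest other strain between 1.5 and 2, of which 107 have a name. The genes that follow were picked out after their values were seen, with intensities in the order Ssa1 to Ssa4. OPT1, a transporter of glutathione and oligopeptides, read 73.4, 173, 209 and 397. GSH1, which catalyses the first step of glutathione synthesis, read 321, 632, 791 and 1434. Their ratios were 1.896 and 1.81, and each strain was higher than the one before it in that order. STD1, a regulator of Rgt1 in glucose sensing, read 22.6, 32.6, 39.3 and 76.6. Its paralog MTH1 read 63.4, 115, 163 and 252. Their ratios were 1.95 and 1.55, again with Ssa1 lowest and Ssa3 nearest to Ssa4. YKR075C, which lies next to ECM4 in the gene order, read 374, 656, 750.1 and 1459 with a ratio of 1.94.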
